A study of Rattus norvegicus with 18 samples.

Results

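The hearts described here are the 7 vehicle hearts of a study of gestational cannabidiol exposure in rats. They came from male Wistar offspring aged 3 weeks whose dams had received vehicle during gestation. They were chosen by label alone, as the vehicle columns of a table of 18 samples. The other 11 hearts came from offspring exposed in gestation to cannabidiol, a non-intoxicating compound of the cannabis plant, at 3 mg/kg/day (CBD3, 6 hearts) or 30 mg/kg/day (CBD30, 5 hearts). They are used here only to see how the same genes varied in hearts that did not enter the ranking, and no treatment effect is measured. Wistar rats are an outbred stock, so that animals differ genetically even within a group. The labels name the heart as the tissue, with no chamber, and do not say which offspring shared a litter. A spread between hearts can therefore hold differences between animals, litters, dissections and libraries, which cannot be told apart.

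Heart muscle contracts without pause and draws most of its energy from mitochondrial respiration. Its messenger RNA is known to be dominated by transcripts of the mitochondrial genome and of the contractile apparatus, beside those of blood, vessels, connective tissue and immune cells. At weaning age the rat heart is also still growing, as heart muscle cells leave the cell cycle and enlarge. In the count table genes are given by Ensembl ID without a name, and 0 of 30560 IDs were paired with a symbol in the reference used here. Which ID belongs to which of these groups is therefore not given, the labelled tissue and sex were not checked against marker genes, and genes are named by ID. In a bulk sample, fewer cells of a type and less RNA per cell cannot be told apart.

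The 7 libraries held 44321480 to 80451013 counts. Each heart is called by the code of its column, a pair of numbers that no label explains. The 4 hearts with codes ending in digit 1 (1.1, 2.1, 3.1 and 4.1) held more counts than the 3 ending in digit 2 (1.2, 2.2 and 3.2), with means of 72079092 and 47366589 counts and no overlap (exact two-sided permutation p = 0.0286, the smallest that 35 divisions can give; Benjamini-Hochberg adjusted p = 0.0857 over 3 library measures). The number of genes with at least 1 count was 19674 to 20375 per heart and overlapped between the digits (digit 1 against digit 2, exact two-sided permutation p = 0.857, adjusted p = 0.857). In all, 23045 genes had a count in at least 1 heart and 17585 in all 7 hearts, while 1549 were counted in a single heart. The genes kept for analysis numbered 15252. Hearts 1.1 and 2.1 stood apart at one end of the main axis of variation and heart 3.1 at the other. The counts of widely varying genes and their lean along this axis are therefore also given with hearts left out.

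The heart transcriptome was dominated by few genes. The 10 most abundant genes of each heart took 28.1% ± 2.93 of its counts (SD, n = 7), from 24.9% in heart 2.1 to 32.7% in heart 1.2. The 100 most abundant took 48.6% ± 3.75 and the 1000 most abundant 70.3% ± 2.90. The number of genes needed to reach 50% of the counts differed widely between hearts, from 53 in heart 1.2 and 73 in heart 3.1 to 185 in heart 2.1 and 197 in heart 1.1, with a median of 155. For 90% of the counts the hearts needed 3844 to 4880 genes. The share of the 10 most abundant genes was 27.0% ± 2.48 in hearts with codes ending in 1 (n = 4) and 29.6% ± 3.23 in those ending in 2 (n = 3), with overlap (exact two-sided permutation p = 0.286, adjusted p = 0.429 over 3 library measures).

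Nearly the same genes led in every heart. The lists of the 10 most abundant genes shared 9 genes across all 7 hearts, and 12 genes appeared in at least 1 list. Of the lists of 100, 71 genes were in all 7 hearts and 137 in at least 1. Counts rise with transcript length as well as with abundance, and no gene lengths for the genome build of the files were used here, so this is an order of counts and not of molecules.

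ENSRNOG00000034234 was the most abundant gene in every heart, with 7.71% ± 0.835 of the counts (SD, n = 7). Its share was 6.51% in heart 1.1, 7.38% in heart 2.1, 8.37% in heart 3.1, 7.61% in heart 4.1, 8.90% in heart 1.2, 6.99% in heart 2.2 and 8.20% in heart 3.2. The highest share was 1.37 times the lowest. ENSRNOG00000030700 came next with 3.00% ± 0.663, and ranged from 2.14% in heart 1.1 and 2.24% in heart 2.1 to 3.68% in heart 3.1 and 3.73% in heart 1.2. Both genes were lowest in heart 1.1 and highest in heart 1.2. On log2 CPM scaled by TMM factors, a correction that lowers the weight of dominant genes, the SD between hearts was 0.31 for ENSRNOG00000034234 and 0.47 for ENSRNOG00000030700. With library size as the only scaling it was 0.16 for ENSRNOG00000034234.

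The most abundant genes moved together from heart to heart. Of the 10 with the highest mean share, 8 had their highest TMM-scaled level in heart 1.2 and 8 had their lowest in heart 1.1 (7 and 7 with library size only). Of the leading 30, 16 were highest in heart 1.2 and 9 in heart 3.1, and 20 were lowest in heart 1.1 (13, 8 and 15 with library size only). Over all 8580 genes averaging 10 CPM or more, heart 1.2 was highest for 17.3% and heart 3.1 for 26.8%, and heart 1.1 was lowest for 22.2%. The number highest in heart 3.1 was thus near the share over all genes. With heart 1.1 left out, 8 of the 10 and 18 of the 30 were highest in heart 1.2, and 16 of the 30 were lowest in heart 2.1. Hearts 1.2 and 3.1 were also those that needed the fewest genes to reach 50% of their counts. As all shares of a heart add up to its total, a heart in which leading genes take more must show less of the rest before scaling. The TMM factors that offset this ranged from 0.871 in heart 1.2 and 0.880 in heart 3.1 to 1.11 in heart 2.2 and 1.12 in heart 1.1.

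**Figure D1:**
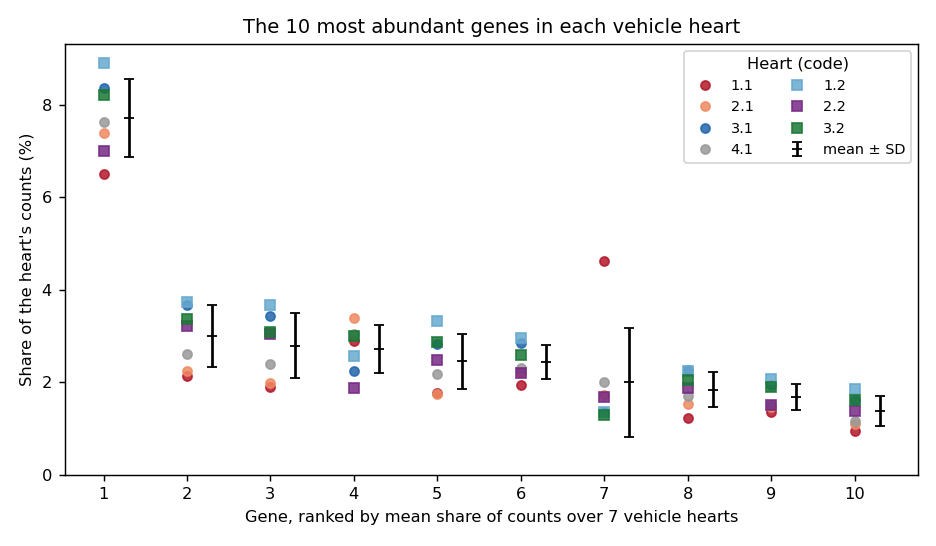
Share of each heart's counts (percent, vertical axis) taken by the 10 genes with the highest mean share over the vehicle hearts, ranked along the horizontal axis; points are hearts, circles for codes ending in 1 and squares for codes ending in 2, and bars show the mean ± SD (n = 7). Heart 1.2 is highest for most of the genes, while the gene of rank 7, ENSRNOG00000029886, is at 4.61% in heart 1.1 and under 2.1% in the others.

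Some abundant genes departed from this order. By share, 4 of the leading 30, those of ranks 4, 14, 23 and 30, were highest in heart 2.1 and lowest in heart 2.2. By TMM-scaled level, 3 of the 30 were highest in heart 2.1. On that scale 10.6% of all 8580 genes averaging 10 CPM or more were highest in heart 2.1 and lowest in heart 2.2. The pattern is therefore not particular to the leading genes. Another pair was singled out after their values were seen, as the leading genes with the largest SD relative to their mean share among the 30 most abundant. ENSRNOG00000029886, of rank 7, took 4.61% of the counts in heart 1.1 and 1.28% to 2.0% in the other 6 hearts. ENSRNOG00000047098, of rank 21, took 1.58% in heart 1.1 and 0.30% to 0.56% in the others. Both were thus high in heart 1.1 alone, where most other leading genes were lowest. The counts of ENSRNOG00000047098 were 0.234 to 0.342 times those of ENSRNOG00000029886 in the 7 hearts, a narrower range than either gene showed alone. Without heart 1.1 the SD of log2 CPM fell from 0.55 to 0.17 for ENSRNOG00000029886 and from 0.69 to 0.27 for ENSRNOG00000047098. In CBD3 hearts ENSRNOG00000029886 was at 38146 CPM in the heart coded 3.2, 23065 CPM in that coded 2.1 and 11239 to 15760 CPM in the other 4. In CBD30 hearts it was at 9587, 12862, 19234, 23735 and 29720 CPM, with no heart alone at the top.

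By level, 64 genes averaged 1000 CPM or more (counts scaled to a common library size, with TMM factors) and held 45.5% ± 3.73 of the counts (SD, n = 7). The 1185 genes at 100 to 1000 CPM held 27.3% ± 1.01 and the 7331 genes at 10 to 100 CPM 24.7% ± 2.41. The 6672 genes under 10 CPM were 43.7% of those kept, and held 2.39% ± 0.348 of the counts.

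Most genes differed little between the 7 hearts. The median SD of log2 CPM was 0.24 over the 8580 genes that averaged 10 CPM or more, with 0.11 at the 10th and 0.43 at the 90th percentile, while counting error alone would give a median SD of 0.03. The common biological coefficient of variation from edgeR, the relative spread left after counting error, was 0.243 over the genes kept. Among these 8580 genes, 486 (5.66%) stayed within 1.2-fold from the lowest to the highest heart. Another 1580 genes (18.4%) spanned more than 2-fold, 219 of them (2.55% of all) more than 4-fold and 29 (0.338%) more than 10-fold. Spread was larger at low levels, with a median SD of 0.44 under 1 CPM, where counting error alone gives 0.27, and of 0.33 at 1 to 10 CPM, where it gives 0.10. At 10 to 100 and 100 to 1000 CPM the median SD was 0.24 and 0.26, and at 1000 CPM and over it was 0.33, against 0.0037 from counting error. The spread of the most abundant genes was therefore far above what sequencing depth sets.

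**Figure D2:**
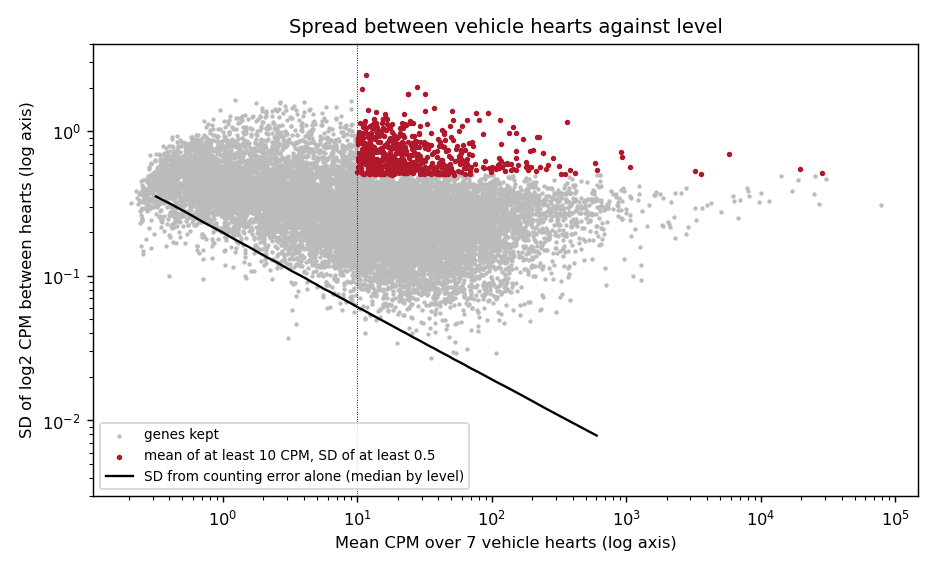
SD of log2 CPM between the 7 vehicle hearts (vertical log axis) against mean CPM (horizontal log axis), 1 point per gene for 15252 genes; the line gives the SD expected from counting error alone, and the 565 genes averaging 10 CPM or more with an SD of at least 0.5 are in red. Nearly all genes above 10 CPM lie above the line.

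A gene was called widely varying where its SD was at least 0.5 on the log2 scale, and 565 of the 8580 genes averaging 10 CPM or more were (6.59%). The values next to this limit were 0.5005 inside and 0.4996 outside. With library size as the only scaling the number was 861 of 8603 genes, which held 536 of the 565. Without hearts 1.1 and 2.1 it was 398 of 8396 genes (4.74%). It was 629 of 8703 genes (7.23%) within the 4 hearts with codes ending in 1, and 715 of 8395 genes (8.52%) within the 3 ending in 2.

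ENSRNOG00000003537 varied most of all genes at this level, with an SD of 2.45 on the log2 scale. It was at 24.0 CPM in heart 1.1, 24.1 CPM in heart 4.1 and 23.7 CPM in heart 1.2, at 5.96 CPM in heart 2.1, and at 1.59, 0.689 and 0.512 CPM in hearts 3.1, 2.2 and 3.2. The hearts thus fell into 3 at nearly the same high level, 3 near or under 2 CPM and 1 between them, a 47.1-fold range that crosses both digits of the code. Its mean of 11.5 CPM passed the limit of 10 CPM for this ranking only through the 3 high hearts, and its median was 5.96 CPM. The low values rest on 107, 35 and 25 counts. The gene also ranged from 1.05 to 18.5 CPM over the CBD3 hearts (median 8.37 CPM) and from 0.668 to 18.9 CPM over the CBD30 hearts (median 8.08 CPM).

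ENSRNOG00000014409 had the next largest SD, 2.02, with another pattern. It stood at 158 CPM in heart 1.1 and at 2.92 to 10.9 CPM in the other 6 hearts, with a median of 4.86 CPM over all 7. Its mean of 27.7 CPM passed the limit of 10 CPM for this ranking only through heart 1.1. The high value is 11926 counts, so counting error is not the limit. Without heart 1.1 its SD was 0.83. In CBD3 it was at 296 CPM in the heart coded 3.2, 22.7 CPM in that coded 1.2 and 2.11 to 6.71 CPM in the other 4, and the CBD30 hearts lay at 2.23 to 28.8 CPM. Such genes were few. Hearts standing alone at either end were sought by the gap to the next heart relative to the whole range. The limit was one that chance passes in about 1 of 20 sets. By it, 24 of the 565 genes (4.25%) had such a heart, near the share over all genes, 436 of 8580 (5.08%). The high and the low end went opposite ways. A heart alone at the high end was found in 16 of the 565, each time heart 1.1. This is a larger share than the 91 of all 8580 genes. A heart alone at the low end was found in 8 of the 565 against 345 of the 8580, a smaller share. The 565 were chosen by SD and by a mean CPM that 1 high heart can lift. The choice itself thus bears on both shares, which are no test.

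At the other end, ENSRNOG00000018293 varied least, with 35.3 ± 0.660 CPM (SD, n = 7). Its values were 35.7, 35.3, 35.4 and 36.0 CPM in hearts 1.1, 2.1, 3.1 and 4.1, and 34.3, 34.6 and 36.0 CPM in hearts 1.2, 2.2 and 3.2. Its SD of 0.027 on the log2 scale was under the 0.032 that counting error alone gives. ENSRNOG00000009781 followed with 54.2 ± 1.1 CPM, from 53.0 to 55.9 CPM, and an SD of 0.029 against 0.026 from counting error. Only 7 of the 8580 genes had an SD below their counting error. This evenness depends on the scaling, which centres the hearts on the bulk of genes: with library size only the SD was 0.16 for ENSRNOG00000018293 and 0.16 for ENSRNOG00000009781. It carried over to the other hearts only in part. ENSRNOG00000018293 had an SD of 0.11 in CBD3 and 0.089 in CBD30, lower than all but 27.9% and 7.39% of genes, and ENSRNOG00000009781 had 0.16 and 0.18, near the middle of all genes (52.8% and 42.1% were lower). Leaving out heart 1.1, 2.1 or 4.1, which also changes the scaling factors, raised the SD of ENSRNOG00000018293 to 0.049, 0.050 and 0.043. The 100 genes with the lowest SD had a median SD of 0.056 in vehicle, the measure that chose them, and of 0.11 in both CBD3 and CBD30, where the median over all 8580 genes was 0.16 and 0.20.

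**Figure D3:**
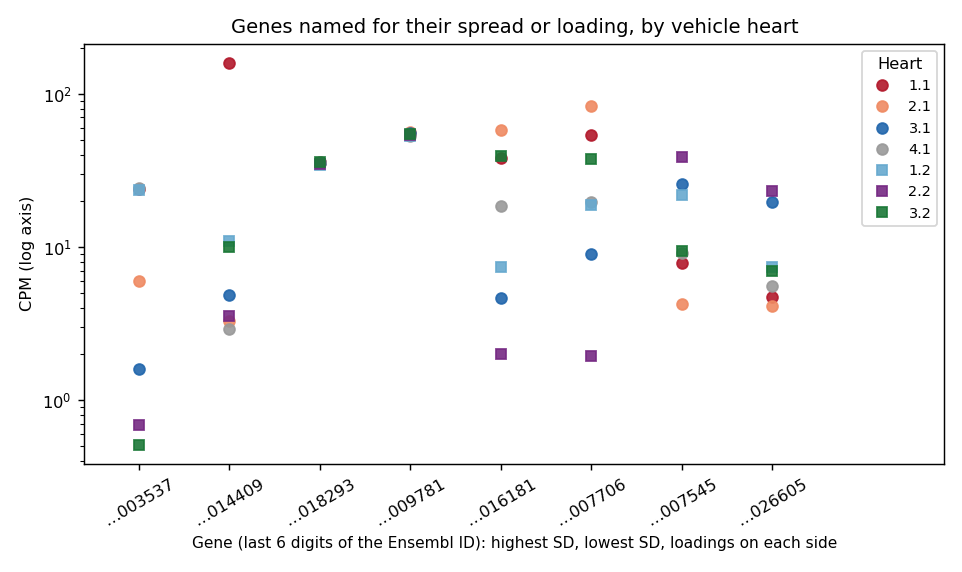
CPM (log axis) in each vehicle heart of the genes with the highest SD (ENSRNOG00000003537 and ENSRNOG00000014409), the lowest SD (ENSRNOG00000018293 and ENSRNOG00000009781) and the largest loadings on each side of the first component; points are hearts, circles for codes ending in 1 and squares for codes ending in 2. The lowest-SD genes collapse to single points near 35.3 and 54.2 CPM, while ENSRNOG00000003537 splits into a high set near 24 CPM and a low set near or under 2 CPM.

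The first axis of variation held the largest part of the differences between the hearts, though less than all other axes together. The first principal component of log2 CPM over the 15252 genes held 47.1% of the variance and the next 21.9%. Hearts 2.1 and 1.1 had the highest scores on the first component (44.4 and 37.8), heart 4.1 was at 10.4 and heart 3.2 at -2.96, and hearts 2.2, 1.2 and 3.1 had the lowest (-21.3, -28.9 and -39.3). Only heart 3.1 broke an order by the last digit of the code, as the other hearts ending in 1 scored above all those ending in 2. Whether the axis follows the digit was not tested. On the next component heart 2.2 stood at 41.6, with the others at -21.7 to 14.5. Across all pairs of hearts the Pearson correlation of log2 CPM was 0.959 to 0.988, and the median absolute difference over the 8580 genes was 0.16 to 0.40. Hearts were thus alike in the order of their genes. No pair of the 21 looked like 1 library deposited more than once (lowest chi-square per degree of freedom 43.9).

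**Figure D4:**
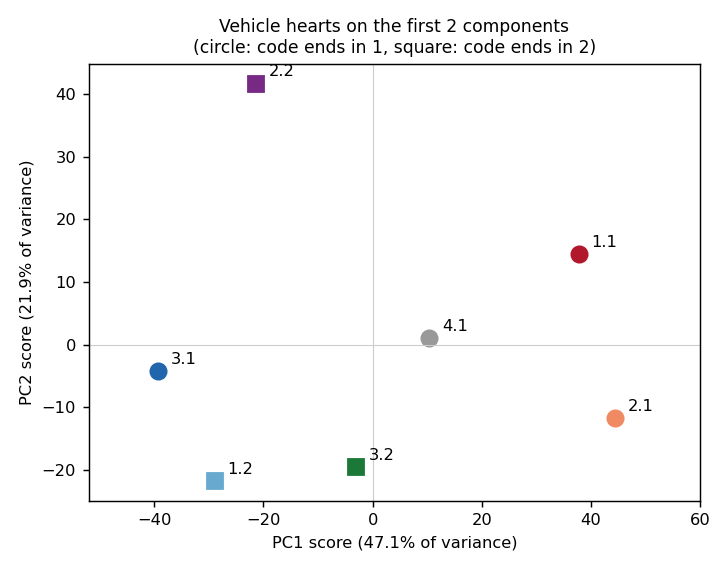
Scores of the 7 vehicle hearts on the first component (horizontal axis, 47.1% of the variance) and the next (vertical axis, 21.9%) of log2 CPM; each point is a heart, labelled by its code, circles for codes ending in 1 and squares for codes ending in 2. Hearts 1.1 and 2.1 lie at one end of the first component and heart 3.1 at the other, while heart 2.2 is apart on the next.

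ENSRNOG00000016181 had the largest loading on the side of hearts 2.1 and 1.1. It was at 57.9 CPM in heart 2.1, 39.4 CPM in heart 3.2, 38.0 CPM in heart 1.1, 18.6 CPM in heart 4.1, 7.36 CPM in heart 1.2, 4.66 CPM in heart 3.1 and 2.01 CPM in heart 2.2, a 28.8-fold range. ENSRNOG00000007706 came next, at 82.6 CPM in heart 2.1, 53.6 CPM in heart 1.1 and 37.3 CPM in heart 3.2, against 19.5, 18.9 and 8.99 CPM in hearts 4.1, 1.2 and 3.1 and 1.95 CPM in heart 2.2. The 2 genes shared their highest heart, their lowest heart and nearly the same order between them, and ranked 4 and 6 of the 8580 genes by SD. Without heart 2.2 the SD of ENSRNOG00000007706 fell from 1.80 to 1.18. Over the CBD3 hearts ENSRNOG00000016181 ranged from 5.01 to 25.3 CPM and over the CBD30 hearts from 2.58 to 20.6 CPM.

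On the other side, ENSRNOG00000007545 was at 38.6 CPM in heart 2.2, 25.9 CPM in heart 3.1 and 21.9 CPM in heart 1.2, against 9.35, 9.12, 7.89 and 4.21 CPM in hearts 3.2, 4.1, 1.1 and 2.1. ENSRNOG00000026605 was at 23.1 CPM in heart 2.2 and 19.6 CPM in heart 3.1, with the other 5 hearts at 4.11 to 7.41 CPM and heart 2.1 the lowest. Its mean of 10.2 CPM passed the limit of 10 CPM only through hearts 2.2 and 3.1. The mean of ENSRNOG00000007545, 16.7 CPM, passed it only through hearts 2.2, 3.1 and 1.2. In CBD3 and CBD30 hearts ENSRNOG00000007545 ranged from 10.7 to 50.8 CPM and from 8.69 to 36.7 CPM. ENSRNOG00000026605 varied less there, from 5.98 to 12.9 CPM in CBD3 (SD 0.41 on the log2 scale) and from 7.62 to 12.4 CPM in CBD30 (SD 0.27). Among vehicle hearts both ran opposite to the former pair, and their SDs were smaller (1.13 and 0.99 against 1.81 and 1.80).

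Widely varying genes leaned to one side of this axis. Of the 565, 484 (85.7%) loaded on the side of hearts 2.1 and 1.1 and 81 on the other, while over all 8580 genes the shares were near even (49.3% on that side). Heart 2.1 was the highest heart for 371 of the 565 (65.7%), against 24.6% of all 8580 genes. Heart 2.2 was the lowest for 218 (38.6% against 22.2%) and heart 1.2 for 166 (29.4% against 16.1%). Wide variation in these hearts was thus mostly of genes with high values in heart 2.1 and low values in heart 2.2 or 1.2. The share highest in heart 2.1 stayed between 56.4% and 79.4% under other scalings and with each of the other hearts left out. The share on the side of hearts 2.1 and 1.1 was 80.6% to 88.4% with each heart left out. Without both of them the component was another one, so the lean to the side of hearts 2.1 and 1.1 could not be measured. On its side away from heart 3.1 lay 34.4% of the genes widely varying in the other 5 hearts and 40.6% of all genes. Component and SD come from the same values, so these shares describe the data and are no test.

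In 200 of the 565 genes (35.4%) heart 2.1 was highest and heart 2.2 lowest, a pattern found in 10.6% of all 8580 genes. The set was formed after its values were seen, and by its rule it cannot be formed without hearts 2.1 and 2.2. The median log2 level of these 200 genes relative to each gene's mean was 0.86 in heart 2.1, 0.45 in heart 1.1, 0.39 in heart 3.2, 0.16 in heart 4.1, -0.11 in heart 1.2, -0.48 in heart 3.1 and -1.20 in heart 2.2. Only the highest and the lowest heart were fixed by the choice. Of the other 5, heart 1.1 was above the gene's mean for 196 of the 200 genes and heart 3.2 for 193, and heart 3.1 for 0.

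The same 200 genes were then measured in the 11 hearts that had no part in their choice. Within CBD3 the median level relative to each gene's mean in that group was -0.23, -0.31 and -0.081 on the log2 scale in the hearts coded 1.1, 2.1 and 3.1, and 0.53, 0.20 and -0.065 in those coded 1.2, 2.2 and 3.2. In the heart coded 1.2, 187 of the 200 genes were above their mean, and in that coded 2.1, 6 were. Within CBD30 it was -0.13 and -0.64 in the hearts coded 1.1 and 2.1, and 0.21, 0.35 and 0.23 in those coded 1.2, 3.2 and 4.2. In both groups every heart with a code ending in 1 was thus below every heart ending in 2, though by only 0.02 between the nearest in CBD3. Vehicle hearts could not show that order, as the 200 genes were chosen as highest in heart 2.1 and lowest in heart 2.2. Among the remaining vehicle hearts, 1.1 and 4.1 were above heart 1.2, and heart 3.1 was the lowest. The digit's part in these values was not tested. Over all 8580 genes the same medians lay between -0.034 and 0.029 in those 11 hearts, so the 200 genes were high or low together there. Their median SD was 0.43 in CBD3 and 0.49 in CBD30 (0.16 and 0.20 over all 8580 genes). An SD of at least 0.5 was reached by 54 of the 200 in CBD3 (27.0%, background 2.72% of 8580 genes) and by 92 in CBD30 (46.0%, background 4.58%). The 565 widely varying genes, from which the 200 were taken, reached it in 34.3% and 54.0%. Their median SD was 0.43 in CBD3 and 0.52 in CBD30. A wide spread in the other hearts was thus not particular to the 200.

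**Figure D5:**
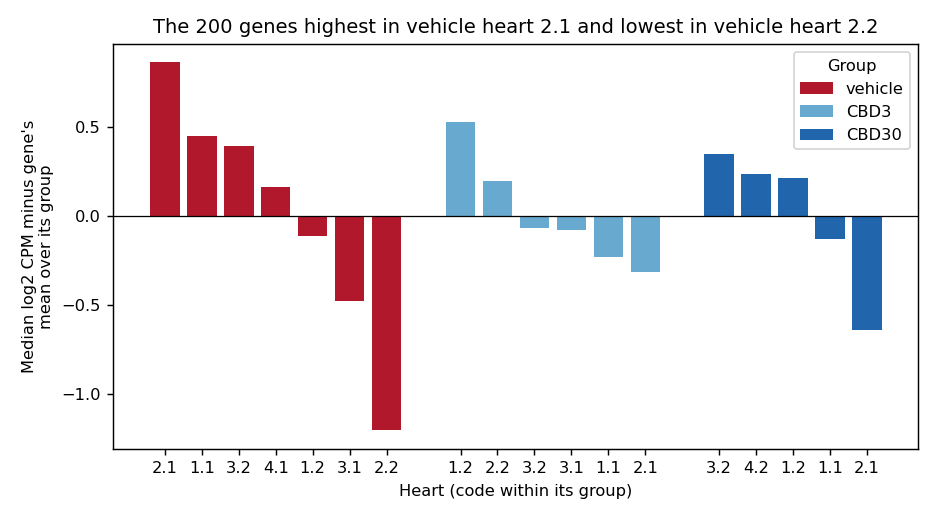
Median over 200 genes of log2 CPM minus the gene's mean in its group (vertical axis) for each heart (horizontal axis, by code, sorted within group); the genes were chosen as highest in vehicle heart 2.1 and lowest in vehicle heart 2.2. The vehicle hearts run from 0.86 to -1.20, the CBD3 hearts from 0.53 to -0.31 and the CBD30 hearts from 0.35 to -0.64; a code used in more than 1 group stands for different animals.

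Wide variation as such also recurred outside the vehicle group. Of the 565 genes, 194 (34.3%) had an SD of at least 0.5 over the CBD3 hearts, against 2.72% of all 8580 genes. These were 83.3% of the 233 genes that did so there. Over the CBD30 hearts 305 did (54.0%, against 4.58% of all 8580 genes), which were 77.6% of the 393 that did so there. In both groups 162 of the 565 (28.7%) did, and the share of all 8580 genes that did so in both was not counted. Across the 8580 genes the SD in vehicle hearts had a Spearman correlation of 0.50 with that in CBD3 and 0.64 with that in CBD30, as a description across genes that share level and counting error. The median SD over the 8580 genes was 0.24 in vehicle, 0.16 in CBD3 and 0.20 in CBD30, and whether the groups differ in spread was not tested.

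The code divides the vehicle hearts by its last digit and by its first number, and neither is explained. The last digit was compared as a division that the column codes hold, and depth moves with it too. Whether the deposited counts were adjusted for it beforehand is not stated by any label or header. Such a step would lower the numbers of genes found here by construction. Between the 4 hearts with codes ending in 1 and the 3 ending in 2, 0 of 15252 genes (0%) passed an adjusted p of 0.05 with the quasi-likelihood test of edgeR (lowest adjusted p = 0.896). Without adjustment, 256 genes (1.68%) had a p under 0.05, below the nominal 763. DESeq2 called 6 of 23029 genes (0.0261%), with 416 at an unadjusted p under 0.05. The unadjusted number rested on single hearts: with edgeR it was 2671 without heart 3.1, 624 without heart 3.2, 595 without heart 2.2, 148 without heart 2.1, 147 without heart 1.1 and 134 without heart 1.2, with 0 genes called in each. The part of depth in these numbers was not tested. The median absolute difference between the digits was 0.17 on the log2 scale over the genes tested.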

How the data were processed

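Per the labels' protocols, frozen hearts gave RNA with an integrity number of at least 7, and libraries came from a stranded messenger RNA kit. The authors deposited whole-number counts by Ensembl gene; whether these were adjusted before deposit is not stated. Tools named in the submitters' processing notes are featureCounts and edgeR, with the build mRatBN7.2; aligner, annotation release and settings: not given in the sources used here. For 4 vehicle columns the replicate number is unknown, because a pair of labels holds each code.

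Genes passed filterByExpr over the vehicle samples (minimum count 10, total 15). Scaling was by TMM in edgeR 4.0.16 (R 4.3.3), log2 CPM had a prior count of 2, and CBD3 and CBD30 hearts were scaled within their group. Counting error is the Poisson SD. The digits of the code were compared by edgeR's quasi-likelihood F test with Benjamini-Hochberg adjustment and by DESeq2 1.42.0, and library measures by exact permutation. Scripts were tested on simulated data. P-values treat the labelled biological replicates as independent.

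The hearts, measures and lists were chosen with earlier results of these data known. Genes named are the most abundant, most and least varying and most loaded, limited to 2 IDs per end of each measure because the reference table (47357 genes, 0 with an Ensembl ID) gave no symbols. For that reason 41 gene lists, marker checks and the mitochondrial share were not used. Alternatives covered scaling, filters, prior counts, the spread measure and each heart left out.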

Additional observations from a re-analysis of the deposited data

Results flagged for a closer look

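In 17 sets of 7 hearts examined for a heart far from the others (12 named genes, 4 library measures and the first component), 3 were found. The limit is one that chance passes in about 1 of 20 sets that were not chosen for their spread. All 3 were high values of heart 1.1 in genes named for their spread, so that rate does not apply to them. ENSRNOG00000014409 was at 158 CPM there against 10.9 CPM in the nearest heart. ENSRNOG00000029886 was at 41374 CPM against 19116 CPM, and ENSRNOG00000047098 at 14158 CPM against 5194 CPM.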

How the results depend on the processing

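The 10-gene share was 27.3% to 28.6% with each heart left out. The number of widely varying genes was 497 to 685 with each heart left out, and within 1.5 times 565 under all alternatives run except library size only, which gave 861; with the median absolute deviation it was 670, sharing 385 genes with the 565. The first component held 43.8% to 56.5% of the variance with each heart left out and 32.8% with no low-count filter, which adds genes of few counts; the cause of other shifts was not tested. Between the digits, genes called were 0 to 0 and those at an unadjusted p under 0.05 were 134 to 2671 with each heart left out. With no low-count filter edgeR called 2 genes (498 unadjusted), and DESeq2 called 6 (416 unadjusted). The labels give no replicate numbers shared between the digits. With a replicate block on the code's first number, 0 genes were called and 99 had an unadjusted p under 0.05. Hearts sharing that number did not deviate together (Pearson correlation of deviations -0.31, -0.34 and -0.36 in 3 pairs). What the number stands for is not explained. Without hearts 1.1 and 2.1 the first component was another one, so the lean to their side could not be measured. The side of it reported above held 34.4% of the genes widely varying in the remaining hearts and 40.6% of all genes. The total without mitochondrially encoded genes and the fixed lists were not run, as IDs had no symbols. The block, the lean and the fits without hearts 1.1 and 2.1, within each digit, of the heart 2.1 share, and of scaling in the CBD hearts were chosen after the data were seen. At 44321480 counts, 1 CPM is about 44 counts, so genes under 1 CPM are limited by depth.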

Other observations

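Low values were unevenly filled. In all 4 hearts with codes ending in 1, fewer genes had a count of 2 (332 to 365) than a count of 3 (410 to 474). In hearts 1.2, 2.2 and 3.2 the numbers were 586 against 502, 584 against 573 and 553 against 598. The number with a count of 2, divided by the mean of the numbers with a count of 1 and of 3, was 0.452 to 0.510 in hearts with codes ending in 1 and 0.622 to 0.665 in those ending in 2. These values concern genes far below the 10 CPM used for the spread.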
